A study of Saccharomyces cerevisiae with 25 samples.

Results

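The comparison described here is of unstressed budding yeast (Saccharomyces cerevisiae) cells of the strains eS7A-4KR and eS7A-WT at 0 h, before any tunicamycin was added. Its libraries were chosen by their labels, and they are 7 of the 25 libraries in the series: 2 ribosome footprint libraries of each strain, 2 RNA-seq libraries of eS7A-4KR and the 1 RNA-seq library of eS7A-WT listed here, a second one being not analysed here. The study as a whole asked how ubiquitination of the ribosomal protein eS7A shapes translation under stress of the endoplasmic reticulum (ER), and the 0 h samples are the starting point of that experiment. The question taken up here is which functions already differed between the strains without stress.

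eS7 is a protein of the small ribosomal subunit, encoded in yeast by the paralogs RPS7A and RPS7B. Its lysines are monoubiquitinated by the ubiquitin ligase Not4 (gene MOT2), a member of the CCR4-NOT complex, and Hel2, a ligase that recognises collided ribosomes, can extend that mark into a chain. The deubiquitinating enzyme Ubp3 with its cofactor Bre5 removes it. Ribosome profiling counts the mRNA fragments that ribosomes protect, RNA-seq counts fragments of all mRNA, and translation efficiency (TE) is the footprint level of a gene relative to its mRNA level.

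Both strains were made in the W303-1a background, lacked the chromosomal genes (RPS7a::HisMX6 and RPS7b::natNT2) and lived on eS7A from the centromeric LEU2 plasmid pRS315. The plasmid gene was RPS7a-3HA in eS7A-WT and RPS7a-4KR-3HA in eS7A-4KR, in which the lysines that Not4 modifies are replaced by arginine. Each allele was studied in 1 strain, so the effect of the allele and of anything else that differed between the 2 strains cannot be told apart. The mRNA difference rests on 1 eS7A-WT library, whose spread was taken to be that of the other groups. The study gives its replicates as independent biological ones.

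The eS7A-WT footprint libraries held 33858553 and 27357585 counted reads, and the eS7A-4KR footprint libraries held 21125926 and 18623001. The RNA-seq libraries held 49246452 reads in eS7A-WT and 47087078 and 48369485 in eS7A-4KR. Replicates correlated with a Spearman rho of 0.996 in both footprint groups and 0.999 in the eS7A-4KR RNA-seq group across genes, which are not independent replicates. Levels are given as cpm, the count of a gene relative to the size of its library, after TMM scaling within each assay. Every difference is eS7A-4KR relative to eS7A-WT, and a gene is said to be higher, lower or changed where edgeR's quasi-likelihood test gave an adjusted p below 0.01.

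The deleted RPS7B checked the labels. Its mRNA level was 8.89 cpm in eS7A-WT and 5.34 and 4.36 cpm in eS7A-4KR, whereas the parental W303 libraries held 313 and 372 cpm on a scale set over all libraries of the series. Footprints assigned to RPS7B were still 320 and 445 cpm in eS7A-WT and 399 and 543 cpm in eS7A-4KR, and for these paralogs with near-identical coding sequences they cannot be told apart from footprints of RPS7A. RPS7A itself, on chromosome XV from 505794 to 506767 in the R64 assembly, had footprint levels of 4510 and 6555 cpm in eS7A-WT and 3505 and 4970 cpm in eS7A-4KR, and mRNA levels of 2506 cpm against 1577 and 1563 cpm. The footprint ranges overlapped and neither difference passed the test (log2 difference −0.39 ± 0.25 (SE), adjusted p = 0.19 for footprints, and −0.68 ± 0.31, adjusted p = 0.0638 for mRNA). Gene counts carry no sign of the 4KR substitutions, so they do not check the allele. LEU2, the plasmid marker, was lower in eS7A-4KR in both assays, with 927 and 1283 cpm against 442 and 586 cpm of footprints and 485 cpm against 238 and 232 cpm of mRNA.

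The strains differed widely before treatment. Of 5558 genes tested, 2943 (53.0%) differed in footprints, 1470 higher (26.4%) and 1473 lower (26.5%) in eS7A-4KR, and 2942 of them did so in all 4 pairings of single libraries. In mRNA 2348 genes (42.2%) differed, 1166 higher (21.0%) and 1182 lower (21.3%). Differences of at least 2-fold were called for 679 higher and 505 lower genes in footprints and for 476 and 408 genes in mRNA. Both assays called 1895 genes, and 1884 of these moved in the same direction. TE differed for 134 genes (2.41%), 61 higher (1.10%) and 73 lower (1.31%). Without eS7A-4KR RNA-seq replicate 1 the counts were 1557 genes for mRNA and 53 for TE, and without replicate 2 TE gave 71. Without eS7A-4KR footprint replicate 1 TE gave 213.

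The direction of a footprint difference depended on what the libraries were scaled to. Scaling to total counts in place of TMM moved the median footprint difference of all genes from −0.04 to 0.53 on the log2 scale and the split of footprint calls to 2189 higher and 383 lower, and TE calls became 881 higher and 88 lower. The mRNA median was −0.01 with TMM and 0.00 with total counts. A single TMM scaling over footprint and RNA-seq libraries together gave 1544 higher and 830 lower genes in mRNA and 45 higher and 149 lower in TE. Of 51 gene lists, 18 had a negative footprint median with TMM and a positive one with total counts, 10 were negative and 23 positive with both. The 18 are the lists of eS7 and its ubiquitin enzymes, the other CCR4-NOT subunits, ER chaperones, ER-associated degradation, N-glycan synthesis, ER translocation, COPII and p24 transport, the respiratory chain, sulfate and methionine, purine and one-carbon synthesis, phosphate, inositol and phospholipid, histones, DNA damage, multidrug transport, permeases, upstream ORF mRNAs, and oxygen and heme. Counts of members are to be read against the shares of all genes given above, 26.4% higher and 26.5% lower in footprints and 21.0% and 21.3% in mRNA. Genes with many footprints were more often lower: among the 1390 genes with the highest footprint levels the median log2 difference was −0.45, with 194 genes higher and 618 lower, against 0.12 among the 1390 with the lowest levels, with 376 higher and 179 lower.

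**Figure D1:**
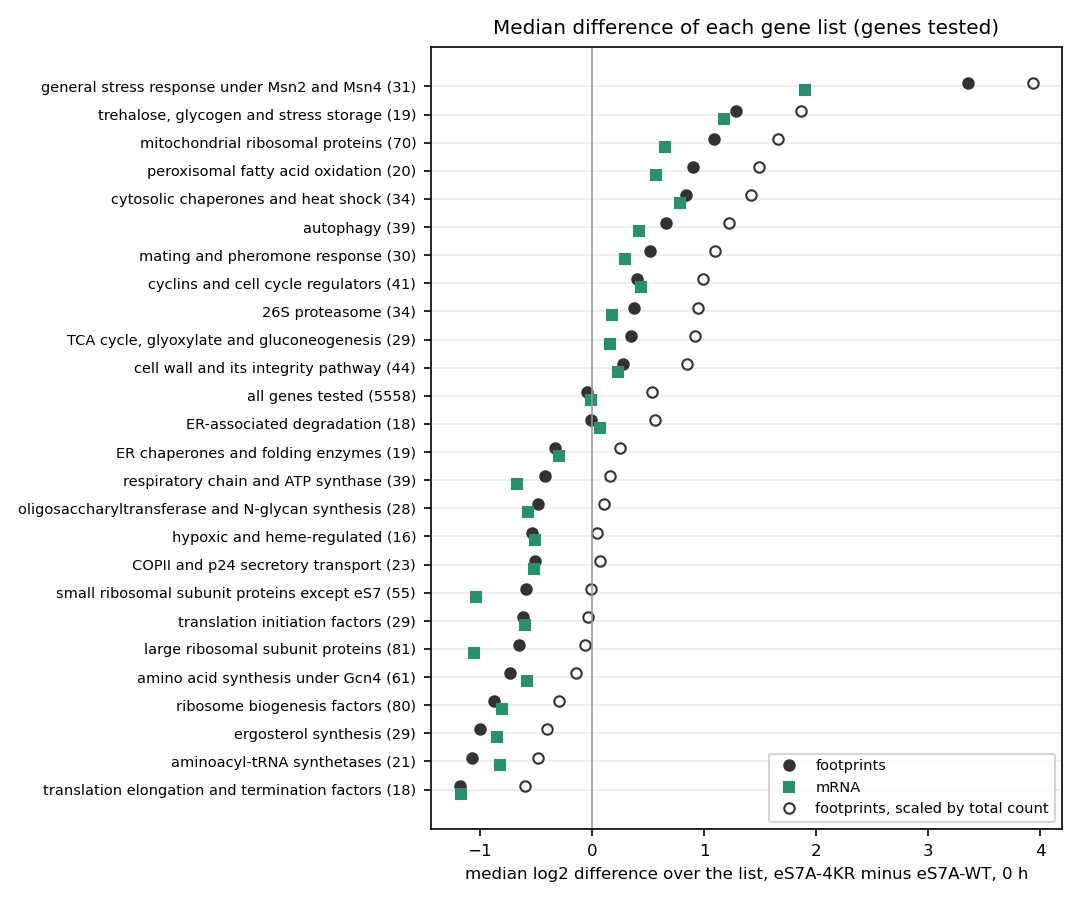
Median log2 difference between eS7A-4KR and eS7A-WT at 0 h over the tested genes of each list (number in parentheses), for footprints (filled circles), mRNA (squares) and footprints scaled by total count (open circles). Stress and mitochondrial ribosomal protein genes lie to the right of the median of all 5558 genes under both scalings, and translation genes to the left. The general stress, peroxisomal, and hypoxic and heme lists were drawn up after values had been seen.

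RNA made from one stretch of the mitochondrial genome was nearly missing in eS7A-4KR. Mitochondrial DNA encodes a few subunits of the respiratory chain and the ATP synthase, and its COX1 and COB genes carry introns with ORFs of their own. COX1, encoding a catalytic subunit of cytochrome c oxidase, had an RNA-seq level of 1374 cpm in eS7A-WT and 2.16 and 2.04 cpm in eS7A-4KR, which is 0.153% of the eS7A-WT level (56206 counted reads against 86 and 86). The COX1 intron ORFs AI1 to AI4 and AI5_ALPHA were at 0.0895% to 0.147% of eS7A-WT. AI5_BETA had 852 reads in eS7A-WT and 0 in both eS7A-4KR libraries, a count that allows up to 0.0752 and 0.0712 cpm against 20.8 cpm (3 counts per library, counting error only). ATP6, a subunit of the ATP synthase, fell from 155 cpm to 0.226 and 0.142 cpm. These ORFs lie in 1 stretch, from position 13818 to 29266 of the mitochondrial genome in the R64 assembly. COX1, AI1 to AI4 and AI5_ALPHA all start at 13818, and AI5_BETA lies within the span of COX1. Their values are therefore not independent. ATP6 lies outside the span of COX1, but whether its value is independent of theirs was not tested.

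The other mitochondrial ORFs were reduced less, did not pass the test or, for Q0182 and Q0143, were higher. RNA levels and adjusted p-values of mitochondrial ORFs came from a separate edgeR fit of the eS7A RNA-seq libraries alone, over 6066 genes. COB, encoding cytochrome b, was at 1387 cpm in eS7A-WT and 276 and 294 cpm in eS7A-4KR (20.5% of eS7A-WT), and its intron ORFs BI2, BI3 and BI4 were at 27.3%, 16.9% and 27.8%. COX2 was at 35.2% and OLI1, the ring subunit of the ATP synthase, at 65.9%. COX3 was at 682 cpm against 530 and 561 cpm (80.0%, adjusted p = 0.102 by edgeR), and VAR1, a protein of the mitochondrial ribosome, at 113% of eS7A-WT (adjusted p = 0.44). Q0182 had 66 reads in eS7A-WT and 593 and 770 in eS7A-4KR (1030% of eS7A-WT, adjusted p = 5.04e-07), and Q0143 had 11 reads against 27 and 60 (390%, adjusted p = 0.00479). RNA levels thus differed unevenly along the genome.

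The same stretch was as low in eS7A-4KR after 4 h of tunicamycin, where COX1 had 1.89 and 1.56 cpm against 2110 and 2031 cpm in eS7A-WT. Footprints over all 28 mitochondrial ORFs were few in every library, 254 and 185 reads in eS7A-WT and 24 and 21 in eS7A-4KR, and of these ORFs AI1 and AI2 passed the filter on low counts. Mitochondrial DNA itself was not measured. Whether the missing mitochondrial RNA plays a part in the other differences between the strains was not tested.

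**Figure D2:**
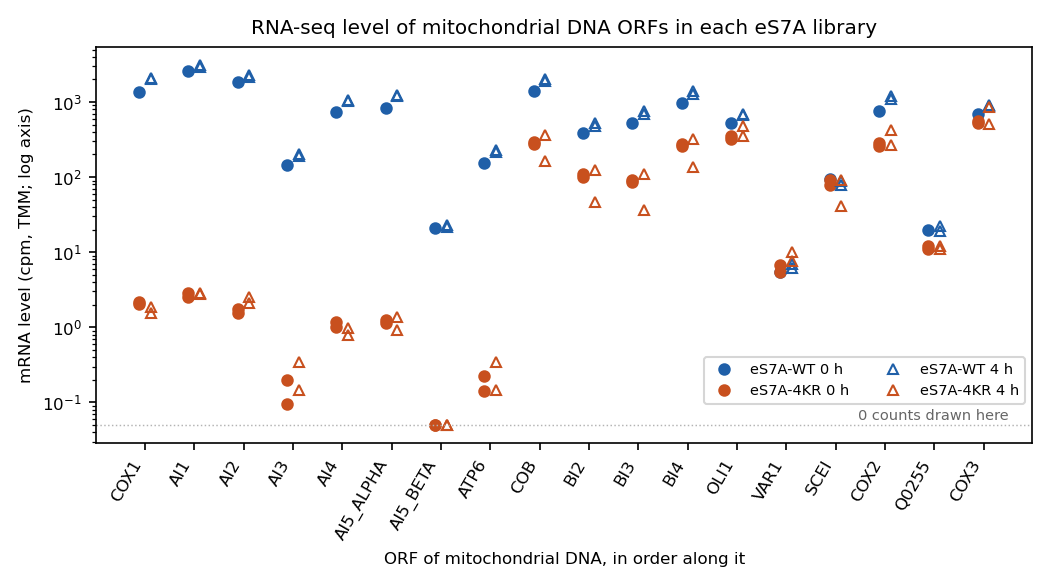
RNA-seq level (cpm, TMM, log axis) of each mitochondrial ORF in order along the mitochondrial genome, with 1 point per eS7A library at 0 h (circles) and 4 h (triangles). COX1 to ATP6 lie at or below 2.89 cpm in every eS7A-4KR library, while from COB onwards the strains come closer together.

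Nuclear genes for the mitochondrial ribosome were higher throughout. All 70 mitochondrial ribosomal protein genes tested had higher footprint levels in eS7A-4KR, against 26.4% of all genes tested, with a median log2 difference of 1.09, and 58 had higher mRNA levels, against 21.0%, with a median of 0.65. With total-count scaling all 70 remained higher in footprints but 11 in mRNA, and without either eS7A-4KR RNA-seq library 39 to 40 were called in mRNA. MRPL6 had 34.2 and 39.2 cpm of footprints in eS7A-WT and 96.2 and 127 cpm in eS7A-4KR, and mRNA levels of 26.2 cpm against 50.9 and 54.2 cpm. MRPL6 footprints were thus 3.04-fold higher (log2 difference 1.60 ± 0.13, SE, adjusted p = 3.78e-10), with no overlap between the strains. MRPL3 was 2.86-fold higher in footprints and 2.17-fold in mRNA. TE was called higher for MRPL20, MRPL33 and IMG1, but each of these TE calls was lost without either eS7A-4KR RNA-seq library (adjusted p = 0.0145 to 0.0401 by edgeR) and also without eS7A-WT footprint replicate 1 or eS7A-4KR footprint replicate 2 (0.0131 to 0.0254).

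Respiratory chain genes were more often lower than higher in mRNA, and in footprints under TMM but not under total counts. Of 39 nuclear genes for the respiratory chain and the ATP synthase, 21 were lower and 3 higher in mRNA, with a median of −0.67. In footprints 18 were lower and 4 higher, with a median of −0.42, and under total counts 7 were lower and 9 higher, with a median of 0.16. Without eS7A-WT footprint replicate 2 or eS7A-4KR footprint replicate 1, 11 were lower. COX5A, a nuclear subunit of cytochrome c oxidase, had 100.5 and 128 cpm of footprints in eS7A-WT against 37.0 and 44.4 cpm, and 77.9 cpm of mRNA against 26.1 and 27.1 cpm, a fall of 2.93-fold in mRNA (adjusted p = 7.35e-09). CYC1, cytochrome c, was 2.83-fold lower in footprints and 3.23-fold lower in mRNA. INH1, the inhibitor of the ATP synthase in its reverse mode, was 4.73-fold lower in footprints, with 18.8 and 19.9 cpm against 4.47 and 3.57 cpm. NDI1, the internal NADH dehydrogenase that passes electrons to ubiquinone, rose 2.37-fold in footprints. HAP4, the regulatory subunit of the transcription activator of respiratory genes, was also higher, at 20.8 and 21.3 cpm of footprints against 46.7 and 48.3 cpm and 27.4 cpm of mRNA against 69.1 and 67.6 cpm.

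Carbon oxidation genes were mixed. Among 29 genes of the TCA cycle, the glyoxylate shunt and gluconeogenesis, 13 were higher (44.8%) and 6 lower (20.7%) in footprints and 9 higher and 4 lower in mRNA, with medians of 0.34 and 0.16. Without eS7A-4KR RNA-seq replicate 1 or replicate 2, 1 and 2 of them were lower in mRNA. ALD4, the mitochondrial aldehyde dehydrogenase, had 52.7 and 48.7 cpm of footprints in eS7A-WT and 524 and 724 cpm in eS7A-4KR, a 12.3-fold difference (log2 3.62 ± 0.18, SE, adjusted p = 2.12e-13). JEN1, the lactate and pyruvate carrier, was 9.60-fold higher in footprints and PDH1, a gene of propionate use, 4.84-fold. Among 20 targets of the retrograde pathway, by which mitochondria signal to the nucleus, 5 were higher and 4 lower (20.0%) in footprints, both at or under the shares of all genes (26.4% and 26.5%). CIT2, the peroxisomal citrate synthase commonly used to read that pathway, was 1.83-fold higher in footprints and 1.67-fold in mRNA, while DLD3, another commonly cited target, was 3.38-fold lower in footprints. The retrograde list was drawn up after values had been seen.

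The cytosolic translation apparatus was lower in mRNA, less clearly so in footprints. Of 55 small subunit protein genes other than eS7, 45 were lower and none higher in mRNA (21.3% of all genes were lower), with a median log2 difference of −1.04. Of 81 large subunit protein genes, 73 were lower and none higher, with a median of −1.05. Under total counts 53 and 80 were lower, and without eS7A-4KR RNA-seq replicate 1 the calls were 11 and 22 and without replicate 2 they were 17 and 33. Every tested member of both lists had a negative mRNA difference. Small subunit genes took 8.71% of eS7A-WT RNA-seq counts and 4.09% and 4.29% in eS7A-4KR, and large subunit genes 11.7% against 5.49% and 5.72%.

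In footprints 20 of the 55 small subunit and 36 of the 81 large subunit protein genes were lower and none higher, with medians of −0.59 and −0.65, but under total counts these medians were −0.01 and −0.07. These counts turned on single libraries: without eS7A-WT footprint replicate 1 they were 36 and 65, without replicate 2 they were 5 and 6, without eS7A-4KR footprint replicate 1 they were 4 and 6, and without replicate 2 they were 33 and 65. Over all settings tried, lower genes numbered at most 47 for the small and 78 for the large subunit. The share of footprint counts overlapped between the strains for the small subunit, 8.76% and 9.27% in eS7A-WT against 8.17% and 8.79% in eS7A-4KR. It was slightly lower in eS7A-4KR for the large subunit, 13.8% and 14.6% against 12.1% and 12.9%. In same-numbered replicates it was lower in eS7A-4KR for both subunits, though the labels tie these numbers to no common culture. TE was called for 0 of these genes by edgeR and by DESeq2, with 2 small and 6 large subunit genes at an unadjusted p below 0.05 in edgeR. Under total counts, where 881 of all genes had higher TE, edgeR called TE higher for 54 of the 55 and 79 of the 81. With TMM the TE difference was positive in all 55 and in 75 of the 81, with medians of 0.44 and 0.43 against 0.05 over all genes. TE differences also ran with ORF length, with a median of 0.31 among the shortest genes (16 to 241 codons). The part of length in the medians of these 2 lists was not tested. ASC1, the RACK1 homologue that sits on the small subunit head, is an example that fell in both assays, with 5579 and 8224 cpm of footprints against 2209 and 3192 cpm and 4442 cpm of mRNA against 1540 and 1591 cpm. RPS2 fell 2.18-fold in footprints and RPL1A, whose reads are shared with its paralog, 2.52-fold.

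Genes that build ribosomes and carry out the steps of translation were lower in both assays. Among 80 ribosome biogenesis factors, 64 were lower and 2 higher in footprints and 60 lower and 1 higher in mRNA, with medians of −0.88 and −0.80. Under total counts 23 were lower and 6 higher in footprints, with a median of −0.29, and 45 were lower in mRNA. NSR1, a nucleolar protein of pre-rRNA processing, had 650 and 857 cpm of footprints in eS7A-WT and 178 and 214 cpm in eS7A-4KR, a 3.85-fold fall (log2 −1.95 ± 0.16, SE, adjusted p = 2.41e-10). RPA190, the largest subunit of RNA polymerase I, fell 3.37-fold in footprints and 2.25-fold in mRNA. All 21 aminoacyl-tRNA synthetase genes were lower in footprints and 18 in mRNA, with medians of −1.07 and −0.82. Without eS7A-4KR RNA-seq replicate 1 or replicate 2, 8 and 9 of them were called in mRNA. VAS1, the valyl-tRNA synthetase, had 1449 and 1930 cpm of footprints against 436 and 560 cpm.

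Elongation and termination factors followed, with 14 of 18 lower and none higher in footprints and 12 lower and 1 higher in mRNA. YEF3, the fungal elongation factor eEF3, had 10800 and 15170 cpm of footprints against 3080 and 4267 cpm, a 3.54-fold fall. EFT2, elongation factor 2, was 3.06-fold lower, its reads shared with the identical copy EFT1. Initiation factors were lower for 21 of 29 genes in footprints and 15 in mRNA, 1 gene being higher in each, and the footprint median of −0.62 became −0.04 under total counts. Lower initiation factors numbered 12 and 10 without eS7A-WT footprint replicate 2 or eS7A-4KR footprint replicate 1. The poly(A)-binding protein PAB1 fell 2.80-fold in footprints and 2.27-fold in mRNA. The 2 eIF4E-binding proteins of yeast, which compete with eIF4G for the cap-binding protein, moved in opposite directions: CAF20 was 2.74-fold lower and EAP1 2.23-fold higher in footprints, at 252 and 338 cpm against 92.1 and 124 cpm and at 99.0 and 112 cpm against 215 and 257 cpm.

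Of the genes for enzymes that act on eS7, MOT2 was higher and BRE5, the cofactor of Ubp3, lower in eS7A-4KR, while UBP3 and HEL2 did not pass. They belong to a list of 7 genes in which 1 was higher and 1 lower in footprints (14.3% each, against 26.4% and 26.5% of all genes). MOT2, encoding Not4 and lying on chromosome V from 293050 to 294813 in R64, had 72.7 and 71.0 cpm of footprints in eS7A-WT and 264 and 316 cpm in eS7A-4KR, and 47.6 cpm of mRNA against 108 and 116 cpm. It was 4.04-fold higher in footprints (log2 2.01 ± 0.14, SE, adjusted p = 1.93e-11) and 2.35-fold in mRNA (adjusted p = 5.78e-06), and its TE difference of 0.78 ± 0.22 did not pass (adjusted p = 0.0319). In the parental W303, MOT2 footprints were 71.0 and 66.6 cpm on the scale set over all libraries, close to eS7A-WT. BRE5, on chromosome XIV from 716780 to 718327, went the opposite way, with 68.8 and 66.7 cpm of footprints against 25.9 and 20.1 cpm and 62.8 cpm of mRNA against 37.9 and 35.4 cpm. The fall of BRE5 was 2.93-fold in footprints (adjusted p = 5.86e-11) and 1.71-fold in mRNA (adjusted p = 3.47e-05, 0.0459 under total counts), and its TE difference just missed the threshold (−0.77 ± 0.18, adjusted p = 0.0102).

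UBP3, the catalytic partner of BRE5, did not pass in either assay, with 89.6 and 89.0 cpm of footprints against 75.0 and 73.2 cpm (adjusted p = 0.0184) and 66.0 cpm of mRNA against 79.1 and 80.7 cpm (adjusted p = 0.0505). HEL2 did not pass either, at 71.7 and 71.8 cpm of footprints against 61.9 and 64.0 cpm and an mRNA log2 difference of 0.00 ± 0.12. Of the 8 other CCR4-NOT subunits, 4 were lower and 1 higher in footprints with a median of −0.23, but under total counts 3 were higher and none lower, with a median of 0.35. The scaffold CDC39 was 1.58-fold lower and the deadenylase CCR4 1.70-fold lower in footprints, both calls lost under total counts (adjusted p = 0.673 and 0.401), and NOT5 was 1.48-fold higher in footprints and 1.47-fold in mRNA. The mRNA call of NOT5 was lost without either eS7A-4KR RNA-seq library (adjusted p = 0.0185 and 0.0228) and its footprint call without eS7A-WT replicate 1 or eS7A-4KR replicate 2 (0.0139 and 0.0155).

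Ribosome quality control genes split evenly, with 6 of 19 higher and 6 lower in footprints (31.6% each, against 26.4% and 26.5% of all genes) and 5 higher and 2 lower in mRNA. Without either eS7A-4KR RNA-seq library 3 were higher and none lower in mRNA. CUE3, a member of the complex that splits collided ribosomes, had 21.9 and 18.1 cpm of footprints against 60.1 and 64.6 cpm, a 3.09-fold rise, and its TE was 1.87-fold higher (adjusted p = 0.00447, but 0.0134 and 0.0337 without each eS7A-4KR RNA-seq library, and 0.0186 and 0.0112 without replicate 2 of eS7A-WT and of eS7A-4KR footprints). SKI3, of the complex that feeds mRNA to the exosome, was 2.85-fold higher in footprints. GCN1, a sensor of collided ribosomes that activates the kinase Gcn2, fell from 672 and 748 cpm of footprints to 254 and 266 cpm, and XRN1, the main cytoplasmic 5′ to 3′ exonuclease, fell 2.33-fold in footprints.

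Genes of the general stress response were mostly higher in both assays. In a list of 31 targets of the stress transcription factors Msn2 and Msn4, drawn up after values had been seen, 27 were higher and 1 lower in footprints and 26 higher and 1 lower in mRNA, with medians of 3.36 and 1.90. HSP12, a membrane-associated stress protein, had 4.46 and 5.96 cpm of footprints in eS7A-WT and 292 and 415 cpm in eS7A-4KR, and 6.27 cpm of mRNA against 214 and 223 cpm. This was a 68.9-fold rise in footprints (log2 6.11 ± 0.21, SE, adjusted p = 2.86e-16) and 34.8-fold in mRNA (adjusted p = 3.45e-12). DDR2 rose 70.9-fold in footprints from 0.590 and 0.184 cpm, MOH1 43.4-fold and USV1, a stress-induced zinc finger factor, 35.1-fold. HSP30, a plasma membrane stress protein, rose 15.9-fold in mRNA. By size, the 10 largest footprint rises that met the rule for named genes were those of POX1, DDR2, HSP12, DAK2, SSA3, SPG4, MOH1, PDC6, USV1 and GPG1, and in mRNA those of HSP12, HSP26, MOH1, GAC1, POX1, CSR2, ECM13, DDR2, GPG1 and HSP30. W303 lay with eS7A-WT for HSP12, at 3.13 and 2.49 cpm of footprints on the scale over all libraries.

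Cytosolic chaperones divided by kind. Of 34 chaperone and heat shock genes, 18 were higher and 5 lower in footprints and 16 higher and 4 lower in mRNA, with medians of 0.84 and 0.78. This list shares members with that of Msn2 and Msn4 targets, HSP12 and SSA3 among them, so the counts of the lists are not independent. The small heat shock protein gene HSP26 had 7.41 and 7.19 cpm of footprints against 195 and 254 cpm, and the disaggregase HSP104 had 275 and 328 cpm against 1061 and 1414 cpm. The stress-inducible Hsp70 gene SSA4 rose 10.1-fold and SSA3 48.7-fold in footprints. SSB1, by contrast, an Hsp70 that binds nascent chains on ribosomes, fell 2.76-fold, from 7855 and 10890 cpm to 2843 and 3956 cpm. Of 34 proteasome genes, 14 were higher and none lower in footprints (41.2% against 26.4% of all genes), with a median of 0.37, and 20 did not pass. In mRNA 4 were higher (11.8% against 21.0%), with a median of 0.18. Under total counts all 34 were higher in footprints and 8 in mRNA, where 2189 and 535 of all genes were higher. Without eS7A-WT footprint replicate 1 or eS7A-4KR footprint replicate 2, 4 proteasome genes were called in footprints, and without either eS7A-4KR RNA-seq library 1 was called in mRNA. Without eS7A-WT footprint replicate 1, 8 chaperone genes were lower in footprints, and without either eS7A-4KR RNA-seq library 1 was lower in mRNA. RPN4, the transcription factor of the proteasome genes, was 2.18-fold higher in footprints and 1.88-fold in mRNA.

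Storage carbohydrate genes rose together. Of 19 genes of trehalose and glycogen metabolism, 15 were higher and 1 lower in each assay, with medians of 1.29 in footprints and 1.18 in mRNA. TSL1, a subunit of trehalose synthase, had 22.3 and 18.4 cpm of footprints against 172 and 188 cpm. The glycogen branching enzyme GLC3 rose 9.78-fold, glycogen synthase GSY2 3.98-fold, glycogen phosphorylase GPH1 5.24-fold and the trehalase NTH1 6.77-fold, so that genes of synthesis and of breakdown were both higher. GAC1, a regulator of glycogen synthase, rose 19.3-fold in mRNA from 0.913 cpm.

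Genes of lipid oxidation and of self-digestion were higher too. Of 20 genes of peroxisomal fatty acid oxidation, a list drawn up after values had been seen, 12 were higher and 1 lower in footprints and 8 higher and 1 lower in mRNA. ADR1, a transcription factor of peroxisomal and glucose-repressed genes, rose from 15.9 and 12.7 cpm of footprints to 130 and 130 cpm. POX1, the acyl-CoA oxidase, had 0.0369 and 0.123 cpm of footprints in eS7A-WT, a handful of reads, and 7.51 and 5.06 cpm in eS7A-4KR. Among 39 autophagy genes, 21 were higher and 3 lower in footprints and 16 higher and 2 lower in mRNA, of which 4 were higher in mRNA under total counts. ATG8, the ubiquitin-like protein of the autophagosome membrane, had 6.46 and 6.02 cpm of footprints against 40.5 and 51.3 cpm, and the vacuolar protease PRB1 was 4.08-fold higher. Antioxidant enzyme genes were mixed. Of 30 such genes, 11 were higher and 9 lower in footprints, with a median of 0.07. In mRNA 5 were higher and 11 lower, with a median of −0.29, and 6 were lower without either eS7A-4KR RNA-seq library. The cytosolic catalase CTT1 rose 5.41-fold in footprints, while TRX1 was lower in both assays (log2 −1.40 in footprints and −1.36 in mRNA).

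**Figure D3:**
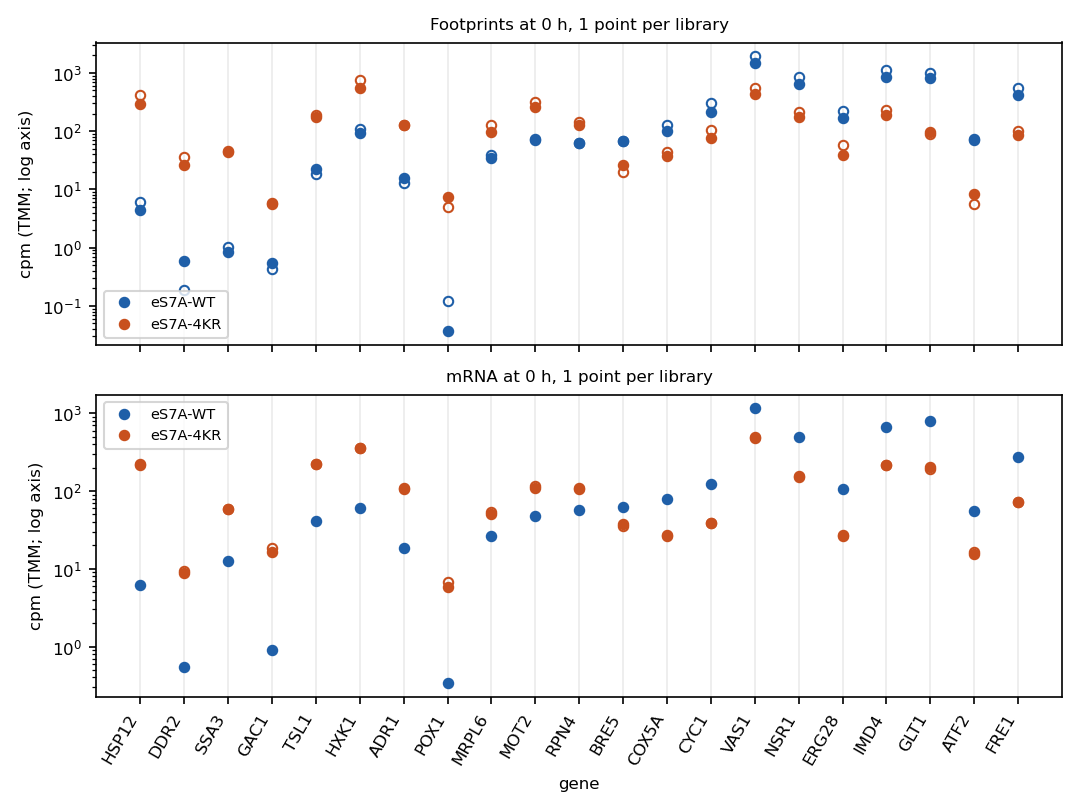
Footprint level (top) and mRNA level (bottom), in cpm after TMM scaling on a log axis, of 21 named genes in each 0 h library, with replicate 1 filled and replicate 2 open for footprints and for eS7A-4KR mRNA (eS7A-WT has 1 mRNA library). The strains do not overlap for any gene drawn, and the genes run from HSP12, higher in eS7A-4KR, to FRE1, lower.

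Most of the 22 glycolysis and fermentation genes did not pass, with 4 higher (18.2%) and 3 lower (13.6%) in footprints against 26.4% and 26.5% of all genes, although 18 of the differences were negative and the median was −0.83. Lower genes numbered 11 and 8 without eS7A-WT footprint replicate 1 or eS7A-4KR footprint replicate 2. In mRNA 4 were higher (18.2%) and 1 lower (4.55%), against 21.0% and 21.3% of all genes, with a median of −0.75. Under total counts 10 were lower and 6 higher in footprints, and 16 were lower and 4 higher in mRNA. The list took 14.6% of eS7A-WT RNA-seq counts against 7.34% and 7.60% in eS7A-4KR. The hexose-phosphorylating enzymes HXK1 and GLK1 were higher, HXK1 at 94.6 and 107 cpm of footprints against 558 and 749 cpm and GLK1 5.63-fold. PDC6, a minor pyruvate decarboxylase, rose 39.3-fold in footprints from 1.14 and 1.11 cpm. HXT1, the low-affinity glucose transporter, fell from 478 and 604 cpm of footprints to 194 and 230 cpm, and MTH1, a corepressor of hexose transporter genes, rose 4.21-fold. Of the 12 transporters and sensors tested, 5 were higher and 3 lower in footprints, but 2 were higher without eS7A-WT footprint replicate 1 or eS7A-4KR footprint replicate 2.

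Amino acid synthesis was lower. Of 61 genes of amino acid synthesis under the activator Gcn4, 40 were lower and 1 higher in footprints and 30 lower and 2 higher in mRNA, and the footprint median of −0.73 was −0.15 under total counts. LYS9, of lysine synthesis, had 224 and 271 cpm of footprints against 67.8 and 70.4 cpm, and ILV3, of branched-chain amino acid synthesis, fell 3.25-fold. GLT1, glutamate synthase, had one of the largest falls, from 827 and 1008 cpm of footprints to 95.2 and 90.4 cpm and from 785 cpm of mRNA to 204 and 191 cpm. Its fall was 9.88-fold in footprints (log2 −3.30 ± 0.16, SE, adjusted p = 1.32e-13) and 3.97-fold in mRNA. GDH2, the enzyme that breaks glutamate down, rose from 52.1 and 51.0 cpm of footprints to 430 and 530 cpm, so a gene of glutamate synthesis and a gene of its breakdown moved in opposite directions.

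Other biosynthetic groups held genes of both directions. Among 21 purine and one-carbon genes, 12 were lower and 4 higher in footprints, with a median of −0.44 that became 0.14 under total counts, and IMD4, an IMP dehydrogenase, fell 4.64-fold. Of 30 sulfate and methionine genes, 12 were lower and 5 higher (3 higher without eS7A-WT footprint replicate 2 or eS7A-4KR footprint replicate 1), and the median of −0.31 became 0.27 under total counts: the methionine synthase MET6 fell 3.54-fold, while JLP1, a dioxygenase that releases sulfite from sulfonates, rose 20.1-fold from 0.406 and 0.307 cpm. Of 31 vitamin synthesis genes, 11 were higher (35.5%) and 4 lower (12.9%) in footprints. SNZ1 and its neighbour SNO1, of pyridoxine synthesis, rose 17.3-fold and 17.5-fold and THI4, of thiamine synthesis, 11.9-fold, while the biotin synthase BIO2 fell 5.07-fold. The carbonic anhydrase NCE103 rose from 30.02 and 27.6 cpm of footprints to 432 and 596 cpm.

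Sterol synthesis was lower along most of the pathway. Of 29 ergosterol synthesis genes, 24 were lower and none higher in footprints and 19 lower and none higher in mRNA, with medians near −1 and of −0.85. Under total counts the footprint median stayed negative at −0.40, with 15 lower and 1 higher. ERG28, a scaffold of the sterol demethylating enzymes, had 168 and 225 cpm of footprints in eS7A-WT and 39.6 and 57.3 cpm in eS7A-4KR, and 107 cpm of mRNA against 27.1 and 26.3 cpm. The squalene epoxidase ERG1, the lanosterol synthase ERG7 and the HMG-CoA reductase HMG1 fell 3.37-fold, 3.48-fold and 2.99-fold in footprints. ATF2, an acetyltransferase that acts on alcohols and sterols, fell 10.2-fold in footprints, from 74.4 and 70.9 cpm to 8.35 and 5.54 cpm.

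Of 16 genes controlled by oxygen and heme, 9 were lower and 2 higher in footprints and 7 lower and 3 higher in mRNA, in a list drawn up after values had been seen whose footprint median of −0.53 became 0.05 under total counts. TIR1, a cell wall mannoprotein of cold and low oxygen, had 32.2 and 24.7 cpm of footprints against 4.91 and 2.74 cpm, and AAC3, the ADP/ATP carrier of anaerobic cells, fell 7.27-fold. HEM13, coproporphyrinogen oxidase of heme synthesis, fell 2.69-fold. The anaerobic gene ANB1 fell 4.74-fold in mRNA, a call lost with the newer quasi-likelihood method (adjusted p = 0.073), and its values are uncertain because it shares sequence with its paralog HYP2.

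Of 24 iron uptake genes, 9 were higher (37.5%) and 6 lower in footprints. The ferric reductases FRE1 and FRE4 fell, FRE1 from 420 and 544 cpm of footprints to 87.4 and 99.3 cpm and FRE4 11.4-fold. The cell wall mannoproteins FIT2 and FIT3, which help hold siderophore iron, and the siderophore transporter ARN2 rose, FIT3 from 6.23 and 4.36 cpm to 63.4 and 72.8 cpm. INO1, which makes inositol phosphate for phospholipids, rose from 1.36 and 0.676 cpm of footprints to 19.1 and 18.8 cpm. In this case W303 stood with eS7A-4KR, at 20.5 and 17.5 cpm on the scale over all libraries.

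Among ER and secretory genes, the lists of N-glycan synthesis and COPII transport had larger shares of lower genes in footprints than all genes had, and ER chaperones did not. The list of ER chaperones and folding enzymes holds 19 genes, among them IRE1 and HAC1, which are described below. In footprints 5 were lower (26.3%, against 26.5% of all genes), IRE1 among them, and the 1 higher gene was HAC1. In mRNA 4 were lower (21.1% against 21.3%) and none higher. KAR2, the ER Hsp70 BiP, had 871 and 1155 cpm of footprints in eS7A-WT and 525 and 673 cpm in eS7A-4KR and just missed the threshold (log2 −0.76 ± 0.25, SE, adjusted p = 0.0119), and its mRNA was 603 cpm against 415 and 411 cpm (adjusted p = 0.132). LHS1, EUG1 and the calnexin homologue CNE1 fell 1.65-fold, 2.04-fold and 2.44-fold in footprints, and the calls of LHS1 and CNE1 were lost under total counts (adjusted p = 0.355 and 0.0796). Of 28 oligosaccharyltransferase and N-glycan genes, 16 were lower in footprints (57.1%) and 15 in mRNA (53.6%) and none higher, and of 23 COPII and p24 transport genes 14 were lower (60.9%) and 1 higher in footprints. Under total counts these footprint counts became 0 lower and 5 higher for N-glycan genes and 4 lower and 1 higher for COPII genes. The footprint medians of the ER chaperone, N-glycan and COPII lists, −0.33, −0.49 and −0.51, turned positive under total counts, at 0.24, 0.11 and 0.07. For 20 ER translocation genes 4 were lower in footprints (20.0%) and 10 in mRNA, with a footprint median of −0.24 that became 0.33 under total counts. Under total counts 7 ER chaperone genes were higher and 1 lower in footprints. Without eS7A-WT footprint replicate 1, 8 chaperone and 8 translocation genes were lower, without eS7A-4KR footprint replicate 2 8 translocation genes, and without the other footprint library of either strain 2 translocation genes and 8 COPII and p24 genes. Without eS7A-4KR RNA-seq replicate 1, 2 chaperone genes were lower in mRNA. ER-associated degradation genes were mixed, 6 of 18 higher and 4 lower in footprints (10 higher and none lower under total counts), with NPL4, a cofactor of the Cdc48 segregase, 2.67-fold higher.

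The sensor and the transcription factor of the unfolded protein response were both measured at 0 h. HAC1, on chromosome VI from 75179 to 76147, encodes that factor, and its unspliced mRNA is kept from translation until the sensor Ire1 has it spliced. HAC1 had 11.7 and 12.04 cpm of footprints in eS7A-WT and 27.5 and 31.9 cpm in eS7A-4KR, and 724 cpm of mRNA against 470 and 484 cpm. Footprints were 2.50-fold higher (log2 1.32 ± 0.22, SE, adjusted p = 1.73e-05), the mRNA difference of −0.60 ± 0.25 did not pass (adjusted p = 0.0435), and TE was 3.79-fold higher (1.92 ± 0.34, adjusted p = 0.000888). With the newer quasi-likelihood method neither the footprint nor the TE difference of HAC1 passed (adjusted p = 0.141 and 0.134), and without eS7A-4KR RNA-seq replicate 1 the TE difference lay at the threshold (adjusted p = 0.01). IRE1 had 24.6 and 20.1 cpm of footprints against 14.7 and 12.3 cpm and 37.2 cpm of mRNA against 46.5 and 40.4 cpm. Its footprints were 1.66-fold lower and its TE 1.93-fold lower (adjusted p = 0.00681), calls that were lost under total counts (adjusted p = 0.672 and 0.507). The TE call of IRE1 was also lost without either eS7A-4KR RNA-seq library (0.0531 and 0.0116), without eS7A-WT footprint replicate 1 (0.0315), without eS7A-4KR footprint replicate 2 (0.0216) and with an offset for codon number (0.0182). HNT1, a nucleotide hydrolase gene that the study followed under stress, had 164 and 214 cpm of footprints against 94.0 and 119 cpm and no called TE difference (−0.34 ± 0.22, adjusted p = 0.385). The footprint call of HNT1 was lost under total counts (log2 −0.24, adjusted p = 0.12 by edgeR).

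Among surface, mating and cell cycle genes, more were called higher than lower. Of 44 cell wall genes, 18 were higher (40.9%, against 26.4% of all genes) and 6 lower (13.6%, against 26.5%) in footprints. GSC2, a glucan synthase subunit induced in stress, rose from 31.9 and 25.6 cpm to 212 and 230 cpm and PST1, a wall protein used to read the cell wall integrity pathway, 3.73-fold. Of 30 mating genes, 15 were higher and 5 lower (16.7%, 3 genes without eS7A-WT footprint replicate 2), the higher ones including the agglutinin anchor AGA1 (3.71-fold). Of 41 cyclins and cell cycle regulators, 21 were higher (51.2%) and 4 lower (9.76%) in footprints and 17 higher and 1 lower in mRNA, with PCL1 at 27.4 and 29.8 cpm against 98.7 and 115 cpm and CLB1 2.30-fold higher. Without eS7A-4KR RNA-seq replicate 1 or replicate 2, 11 and 10 of them were higher in mRNA. The 5 of 10 flocculin and invasive growth genes that were higher in footprints included FLO1, with 0.516 and 0.553 cpm against 3.20 and 2.98 cpm, and FLO genes share reads through their repeats.

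The remaining lists are given by their counts. Of 16 zinc and copper genes, 9 were lower and 4 higher in footprints and 9 lower and 1 higher in mRNA, but under total counts 1 was lower and 4 higher in footprints and 2 lower in mRNA. Of 16 galactose, maltose and sucrose genes, 8 were higher and 2 lower in footprints and 6 higher and 1 lower in mRNA. Without eS7A-WT footprint replicate 2 or eS7A-4KR footprint replicate 1, 5 of them were higher in footprints, without eS7A-4KR RNA-seq replicate 1 3 were higher in mRNA, and under total counts none was higher in mRNA. Nitrogen catabolite repression genes were higher for 12 of 31 and lower for 5 in footprints and for 6 and 3 in mRNA, with 5 higher in footprints without eS7A-4KR replicate 1 and 3 lower without eS7A-WT replicate 1. Meiotic genes were higher for 9 of 25 and lower for 2 in footprints and for 8 and 2 in mRNA.

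Phosphate genes were lower for 11 of 25 and higher for 4 in footprints and for 9 and 4 in mRNA (5 lower in mRNA without either eS7A-4KR RNA-seq library), but under total counts 3 were lower and 6 higher in footprints. Inositol, phospholipid and fatty acid genes were lower for 11 of 28 and higher for 5 in footprints, and multidrug transport genes for 8 and 4 of 26. Under total counts these became 4 and 9, and 4 and 6. Permeases were higher for 4 of 24 and lower for 6, with 2 higher without eS7A-WT footprint replicate 2 or eS7A-4KR footprint replicate 1. Anaerobic wall genes were higher for 3 of 14 and lower for 5, with 1 higher when either eS7A-WT footprint library or eS7A-4KR footprint replicate 2 was left out. Messages with known regulatory upstream ORFs were higher for 5 of 15 and lower for 7 in footprints (4 lower without eS7A-4KR footprint replicate 1, 1 lower under total counts). DNA damage genes were higher for 3 of 16 and lower for 2, and of 10 histone genes 1 was lower, with 3 lower without eS7A-WT footprint replicate 1 or eS7A-4KR footprint replicate 2.

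Beyond the lists, the 10 largest footprint falls that met the naming rule were those of AI1, FRE4, ATF2, GLT1, YEL068C, AAC3, TIR1, DCG1, FRE1 and MAE1. MAE1, the mitochondrial malic enzyme, fell from 188 and 223 cpm to 41.4 and 39.0 cpm. In mRNA the 10 largest falls were those of AI2, AI1, TIR1, DCG1, YJL218W, ANB1, EMA19, ERG28, GLT1 and AAC3. The falls thus span mitochondrial intron ORFs, a wall protein, iron reduction, glutamate and sterol synthesis rather than 1 pathway.

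**Figure D4:**
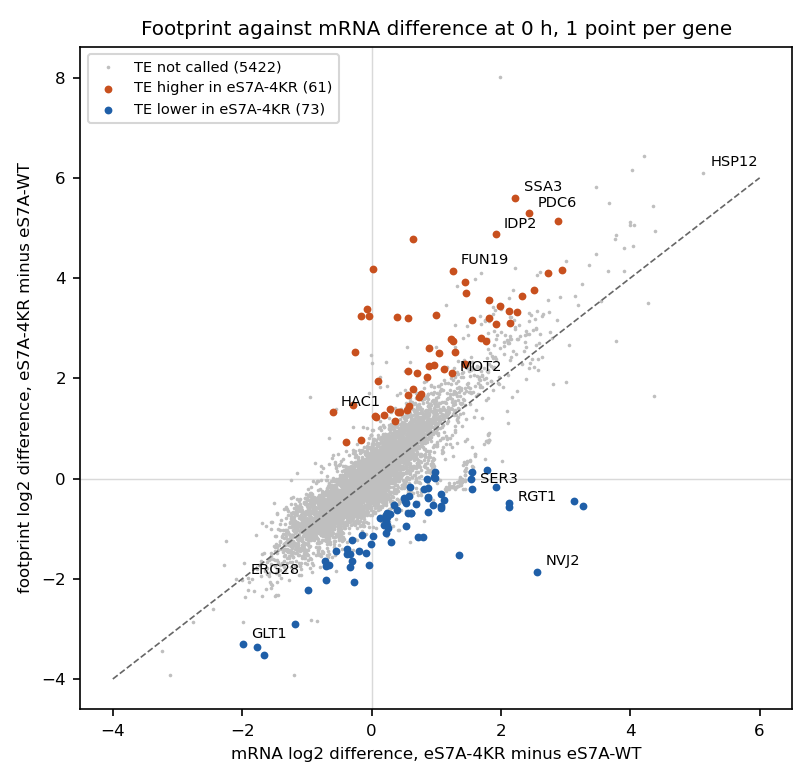
Footprint log2 difference (vertical) against mRNA log2 difference (horizontal) between eS7A-4KR and eS7A-WT at 0 h, 1 point per gene, with genes called for higher TE (61) and lower TE (73) in colour and equal differences on the dashed line. Most genes follow the line, and AI1 and AI2, whose mRNA differences lie off the axis to the left, are not drawn.

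Differences in TE were few beside those in mRNA. Of the 61 genes with higher TE, 39 were also higher in both assays and 22 were called in footprints alone. Of the 73 with lower TE, 28 were called in footprints alone, 24 in mRNA alone, 10 in both in the same direction and 11 in opposite directions. SSA3, the inducible Hsp70, showed the first kind, with 0.848 and 1.04 cpm of footprints against 44.1 and 46.4 cpm and 12.6 cpm of mRNA against 58.9 and 58.3 cpm. Its TE was 10.4-fold higher (log2 3.38 ± 0.25, SE, adjusted p = 1.79e-10). FUN19 followed, with 0.590 and 0.430 cpm of footprints against 9.87 and 8.94 cpm and 13.2 cpm of mRNA against 32.3 and 30.8 cpm, a TE 7.44-fold higher. IDP2, the cytosolic NADP isocitrate dehydrogenase, PDC6 and USV1 had TE 7.78-fold, 7.28-fold and 4.77-fold higher, of which the PDC6 call was lost with the newer quasi-likelihood method (adjusted p = 0.0319). Of the other genes among the 10 largest TE rises, YHR214W-A and YAR068W had the same footprint values in every 0 h library to the precision printed and cannot be told apart, and YHR033W, PUG1 and YGR127W started from at most 1.25 cpm of footprints. The PUG1 call was lost without either eS7A-4KR RNA-seq library (adjusted p = 0.0134 and 0.0326) and without 3 of the 4 footprint libraries (0.0181 to 0.0687).

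In 8 of the 10 largest TE falls that met the naming rule the mRNA was higher in eS7A-4KR. NVJ2, a lipid-binding protein of the junction between nucleus and vacuole, lies on chromosome XVI from 716156 to 718468. Its mRNA level was 50.7 cpm in eS7A-WT and 311 and 287 cpm in eS7A-4KR, while its footprint level went from 58.2 and 51.0 cpm to 15.5 and 14.7 cpm. The mRNA was thus 5.89-fold higher and the footprints 3.62-fold lower, and TE was 21.3-fold lower (log2 −4.41 ± 0.20, SE, adjusted p = 9.34e-13). W303 lay with eS7A-WT, at 53.6 and 57.0 cpm of NVJ2 mRNA on the scale over all libraries, and the eS7A-4KR libraries at 4 h had 352 and 308 cpm. RGT1, the repressor of hexose transporter genes, had 52.1 cpm of mRNA against 233 and 221 cpm but 16.0 and 12.8 cpm of footprints against 11.0 and 8.34 cpm, a TE 6.47-fold lower. SER3, of serine synthesis, had 37.6 cpm of mRNA against 112 and 109 cpm, with footprints of 61.1 and 64.2 cpm against 56.1 and 52.3 cpm that did not pass (adjusted p = 0.0774). For these genes more mRNA was counted in eS7A-4KR without more footprints on the ORF.

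Several other TE falls involve genes that share sequence. HEF3, the rarely used paralog of YEF3, had 5.05 cpm of mRNA against 13.4 and 12.3 cpm and 68.0 and 102 cpm of footprints against 24.9 and 34.4 cpm, and its values are uncertain because it shares stretches of sequence with the abundant YEF3. YIL082W-A and YGR109W-B are ORFs of Ty3 retrotransposons with near-identical copies, and their mRNA was 4.35-fold and 3.801-fold higher in eS7A-4KR with no called footprint difference. SRO77, BRE4, FRE4 and YDR133C completed the 10 largest TE falls, and none of these 4 calls held under total counts (adjusted p = 0.0131 to 0.106). The BRE4 call was also lost without eS7A-WT footprint replicate 1 (0.0299) and that of FRE4 without eS7A-4KR RNA-seq replicate 1 (0.0125). GLT1, whose TE was 2.49-fold lower (adjusted p = 0.00315), was likewise not called under total counts (0.0691) or without either eS7A-4KR RNA-seq library (0.0126 and 0.0235). With an offset that follows codon number its log2 TE difference was −0.68 and did not pass (adjusted p = 0.125).

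TE differences ran with the length of the ORF. In 4 classes of 1389 or 1390 tested genes, from the shortest (16 to 241 codons) to the longest (633 to 4901 codons), the median TE difference was 0.31, 0.12, −0.04 and −0.21 on the log2 scale. TE calls were 25 higher and 4 lower in the shortest class and 9 higher and 47 lower in the longest. The mRNA medians ran the other way, −0.25, −0.07, 0.03 and 0.17, and the footprint medians lay within −0.10 to −0.01. With an offset that follows codon number, 239 genes were called for TE, 141 higher and 98 lower, and 115 of the 134 were among them. The study's methods set the range of footprint read lengths by strain and, for eS7A-WT, also by time. At 0 h the lengths kept were shorter for eS7A-4KR than for eS7A-WT. The part of that choice and of ORF length in the TE differences was not tested.

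**Figure D5:**
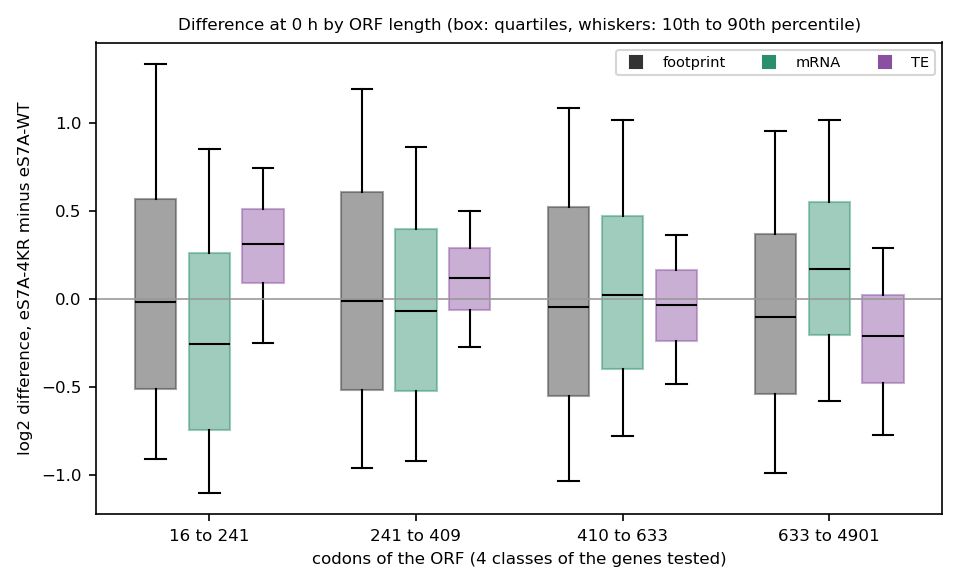
Log2 differences between eS7A-4KR and eS7A-WT at 0 h in 4 classes of the 5558 tested genes by codon number, for footprints, mRNA and TE (box, quartiles; line, median; whiskers, 10th to 90th percentile). The TE median falls from 0.31 in the shortest class to −0.21 in the longest, while the mRNA median rises from −0.25 to 0.17.

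The parental strain W303 at 0 h, which carries both chromosomal eS7 genes and no plasmid, lay nearer to eS7A-WT than to eS7A-4KR for most genes. This held for 77.3% of the 5558 tested genes in footprints and 69.9% in mRNA, and for 2626 of the 2943 genes called in footprints (89.2%). It is a description of levels and was given no test, since the genes were called on the same eS7A libraries.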

How the data were processed

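The authors isolated ribosome footprints and total RNA from the same strains. Footprints carried random barcodes that served to remove duplicated reads, and RNA was depleted of rRNA and made into stranded libraries. Reads were mapped to the yeast transcriptome, and footprints within a range of lengths were assigned to the ribosomal A-site. That range was set by strain and, for eS7A-WT, also by time. The authors deposited raw counts per ORF for each library, with no pooling of replicates. The submitters' processing notes name the sacCer3 build and CASAVA 1.8, Bowtie2 2.0.6 and TopHat2 2.0.7.

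The tables hold 6696 ORFs, of which 6008 took a symbol from RefSeq's R64 annotation by locus tag. All coordinates given are those of R64. Totals at 0 h were 18623001 to 33858553 counts for footprints and 47087078 to 49246452 for RNA-seq. Replicates differed by 8.02 to 36.0 chi-square units per gene, more than sampling noise, so no library was taken as deposited in duplicate.

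The 15 eS7A libraries of 0 and 4 h were fitted in 1 model with edgeR 4.0.16 in R 4.3.3 (quasi-likelihood test, older method, TMM within each assay, a term for each strain, time and assay) over the 5558 genes that averaged 10 or more counts a library in both assays. The common biological coefficient of variation was 0.100, with 7 residual and 17.3 prior degrees of freedom. Levels and tests of mitochondrial RNA came instead from a fit of the eS7A RNA-seq libraries alone, with its own filter, TMM scaling and adjustment. The contrasts were the strain difference at 0 h in footprints, in mRNA and, as their difference, in TE, called at a Benjamini-Hochberg adjusted p below 0.01. On simulated counts of 5554 genes, the test recovered 96 of 100 genes changed in footprints by 1 on the log2 scale and 99 of 100 changed by 2, with 4 false calls. For TE in the same simulation it recovered 74 and 98. For mRNA, over 5551 genes, it recovered 95 and 100. Each simulation changed 200 genes in random directions, with no replicate effect and all other genes equal between the strains. In the data 53.0% of genes were called in footprints and directions depended on the scaling. The simulated rates therefore do not carry over to these data.

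Gene lists (47, and 4 added after values had been seen, with 1404 of 1408 symbols matched) and all members were chosen with earlier results of these data known. A list is described by the number of tested members that passed and, for the main lists, by its median, to be read against the share of all genes that passed, and has no test of its own. Named genes were the 10 largest differences in each direction and contrast among called genes that averaged 50 or more counts at 0 h and kept 1 direction in every pairing of single libraries, up to 6 called members of each list by adjusted p, and RPS7A, RPS7B, MOT2, UBP3, BRE5, HEL2, HAC1 and HNT1. Other genes named beside them (such as LEU2, the mitochondrial ORFs under the filter and members shown for their role) were chosen after their values were seen. Alternatives changed the scaling, the tool (DESeq2 1.42.0), the filter, the quasi-likelihood method, the threshold, a replicate block, the samples fitted, an offset for codon number and each library that could be left out.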

Additional observations from a re-analysis of the deposited data

Results flagged for a closer look

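The strain difference at 0 h was set against the strain difference after 4 h of tunicamycin by an interaction term in the same edgeR fit, at an adjusted p below 0.01 over 5558 genes. In footprints the difference between eS7A-4KR and eS7A-WT was not the same at both times for 2441 genes, being more positive at 0 h for 1168 and more negative for 1273. In mRNA it was not the same for 1934 genes, more positive at 0 h for 864 and more negative for 1070. In TE it was not the same for 35 genes, 18 more positive and 17 more negative at 0 h. The footprint read lengths kept for eS7A-WT also differed between 0 h and 4 h, and the part of that in these counts was not tested.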

How the results depend on the processing

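Calls for footprints, mRNA and TE numbered 2943, 2348 and 134. Leaving out 1 library at a time gave 2508 to 2737, 1557 to 1660 and 53 to 213. The only eS7A-WT RNA-seq library at 0 h could not be left out, so the mRNA and TE differences have no check on it. Total counts in place of TMM gave 2572 footprint, 1331 mRNA and 969 TE calls, of which 71 were among the 134, and TE calls were 194 with TMM over all 15 libraries and 328 with DESeq2 (115 higher, 213 lower). An adjusted p below 0.05 as the threshold gave 415 TE calls, and each assay fitted alone 3550 mRNA calls. The newer quasi-likelihood method gave 34 higher and 93 lower TE genes, 91 of them among the 134. The offset for codon number gave 239 TE calls.

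Replicate numbers were shared by the strains, but nothing in the labels ties them to a common culture or day. Deviations of same-numbered footprint libraries from their group means correlated at 0.633 between eS7A-WT and eS7A-4KR over 5558 genes, and those of eS7A-4KR footprints with RNA-seq at 0.0857. A replicate block over all libraries gave 399 TE calls and a replicate block within each assay 739 TE calls, with 3356 and 3639 for footprints and 2703 and 3092 for mRNA.

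Of the values of single named genes under the alternatives, 4284 kept their direction and side of the threshold, 127 lost a call, 60 gained one and 16 changed sign. The mRNA difference of HEL2, near 0, became 0.168 with TMM over all 15 libraries, 0.008 with total counts, 0.013 with at least 10 counts in every library, 0.016 and 0.029 under the replicate block over all libraries and within each assay, 0.036 with the 7 libraries at 0 h and 0.084 with all 25 libraries. Under total counts the footprint differences of RPS7A, UBP3, HEL2, RGT1 and SER3 became 0.201, 0.313, 0.388, 0.008 and 0.383, and the TE differences of HNT1, UBP3 and HEL2 became 0.236, 0.026 and 0.38. That of IRE1 mRNA became −0.005 with the codon offset. The cause was not tested.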
